A study of Mus musculus with 4 samples.

Results

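The 9 genes described here encode proteins of activator protein 1 (AP-1), namely the FOS branch Fos, Fosb, Fosl1 and Fosl2, the JUN branch Jun, Junb and Jund, and the related factors Atf3 and Batf3. They were taken by symbol from the deposited table of 24339 genes, and all 9 were found. The group was chosen by family membership and with its FPKM difference between the lines, from earlier work on these libraries, already known, so the difference between the lines is given for them as a description and without a test. The libraries came from mesenchymal nephron progenitors of mouse kidney, sorted by flow cytometry for GFP, and polyadenylated RNA was sequenced. The Six2TGC group (2 libraries) carries a bacterial artificial chromosome (BAC) transgene in which the promoter of Six2 drives a fusion of GFP and Cre recombinase. The Six2Cre group (2 libraries) is heterozygous (Six2 Cre/+) for a knock-in that joins GFP-Cre to Six2 through a T2A peptide, so the altered allele lies at Six2 itself. Cells of both lines therefore make GFP-Cre, and no group without it was analysed here. The labels give neither age nor sex and do not say whether a library came from 1 animal or a pool, and the table's name carries the tag E18.

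AP-1 is a dimer of basic leucine zipper (bZIP) proteins. JUN proteins pair with each other or with FOS proteins, whereas FOS proteins do not form stable pairs among themselves, so the supply of both branches sets which dimers can form. Fos, Fosb, Jun, Junb and Atf3 are immediate early genes: their transcripts appear within minutes of a growth factor, stress or handling stimulus, without new protein synthesis, and decay fast. Jund is made at a steadier level in most cells, and Fosl1 and Fosl2 usually follow later. In the kidney, JUN kinase signalling and AP-1 act in the cells of the developing nephron and in injured tubules.

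Promoter sequences are shown first because the immediate early members share a route of activation through short sites close to the start of transcription. RefSeq windows (GRCm38.p6, the build also called mm10) were found for 8 of the 9 genes, the exception being Fosl1. The stretches below are the 120 bases before the RefSeq start, 5′ to 3′ on the strand of the gene. Capitals mark every match, on either strand, to TGACG, the core of a cyclic AMP response element, to TATAAA, or to TGACATCA and the MEF2 box. The first set holds the 5 genes with the largest ratios between the lines.
Fos (chr12:85473770-85473889, plus strand): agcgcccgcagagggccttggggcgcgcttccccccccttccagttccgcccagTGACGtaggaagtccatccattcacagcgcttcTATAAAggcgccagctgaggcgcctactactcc
Fosb (chr7:19310046-19310165, minus strand): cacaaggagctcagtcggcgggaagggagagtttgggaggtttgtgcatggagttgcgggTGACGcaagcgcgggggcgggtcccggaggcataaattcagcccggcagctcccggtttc
Jun (chr4:95052223-95052342, minus strand): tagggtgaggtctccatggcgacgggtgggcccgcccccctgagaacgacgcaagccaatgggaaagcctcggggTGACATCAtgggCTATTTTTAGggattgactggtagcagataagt
Junb (chr8:84978749-84978868, minus strand): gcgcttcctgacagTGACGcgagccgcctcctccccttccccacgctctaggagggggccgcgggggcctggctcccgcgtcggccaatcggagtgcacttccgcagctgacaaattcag
Atf3 (chr1:191183334-191183453, minus strand): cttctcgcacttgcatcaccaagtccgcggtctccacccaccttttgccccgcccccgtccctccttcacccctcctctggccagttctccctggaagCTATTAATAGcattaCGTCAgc
The second set holds the 3 genes with the smallest ratios, as a comparison.
Jund (chr8:70697619-70697738, plus strand): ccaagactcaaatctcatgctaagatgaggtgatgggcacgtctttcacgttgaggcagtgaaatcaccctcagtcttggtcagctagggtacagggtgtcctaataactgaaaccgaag
Fosl2 (chr5:32136352-32136471, plus strand): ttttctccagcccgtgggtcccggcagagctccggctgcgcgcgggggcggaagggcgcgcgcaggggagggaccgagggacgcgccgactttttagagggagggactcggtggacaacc
Batf3 (chr1:191098294-191098413, plus strand): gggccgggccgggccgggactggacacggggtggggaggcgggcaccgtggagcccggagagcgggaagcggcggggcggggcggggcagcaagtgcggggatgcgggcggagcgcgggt

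In the 250 bases before the start, TGACG was found in Fos, Fosb, Junb and Atf3 and not in Jun, Jund, Fosl2 or Batf3. In Fos it began 129 and 66 bases before the start, in Fosb 60 bases, in Junb 106 bases, and in Atf3 it lay within the last 7 bases, on the opposite strand. Of 32841 mouse promoters of the same length, 17.8% hold it. Jun held TGACATCA (2.93% of promoters), the AP-1-like site of its own promoter, from 45 bases before the start. A MEF2 box lay close behind it, and another stood in Atf3, a match found in 0.509% of promoters. TATAAA was found in Fos alone, 33 bases before the start, against 12.4% of promoters. The full AP-1 site TGACTCA (4.46%), the full element TGACGTCA (1.55%, which contains TGACG) and the CArG box bound by serum response factor (1.47%) had no match in any of the 8 windows. These matches describe letters near the RefSeq start, and a site farther away would not be seen. The deposited position of Jund (chr8:70697739-70700616), before which its window lies, is longer than its single-exon GENCODE transcript of 1668 bases. The window may therefore not lie next to the start of that transcript, and its lack of matches may not hold there.

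All 5 abundant immediate early or JUN genes stood lower in the Six2TGC libraries. Values are FPKM, sequenced fragments scaled by transcript length and by library size. Levels of different genes can be compared as far as the lengths used hold, and those are not given. Fos, the founding partner of JUN, stood at 195 and 230.1 in the Six2TGC libraries, against 827 and 836 for Six2Cre. Both Six2Cre libraries lay far above both Six2TGC libraries, and the means of 213 ± 24.8 and 832 ± 5.74 (SD, n = 2 libraries per line, as throughout) differed 3.91-fold. Fosb, which like Fos lends the dimer a strong activation domain, stood at 56.5 and 75.8 against 230.0 and 234, a 3.50-fold ratio of the means. On the log2 scale the Six2TGC libraries differed more from each other for Fosb than for Fos, Jun, Junb or Jund, yet the higher of them lay 3.03-fold below the lower Six2Cre library.

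Within the JUN branch the ratios spread widely. Junb, a JUN protein that activates less strongly than JUN and can restrain it, stood at 101 and 94.2 for Six2TGC and at 405 in both Six2Cre libraries, a 4.15-fold ratio. Jun, the branch's strongest activator, stood at 122 and 130.1 against 337 in both Six2Cre libraries, 2.68-fold. Jund, the steadily expressed member, stood at 291 and 278 against 439 and 402, 1.48-fold. The libraries of the lines did not overlap for any of the 3, as for 65.9% of all genes tested in either direction. The gap between the closest libraries was 4.02-fold for Junb and 1.38-fold for Jund.

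The remaining members were scarce, with means below 3 in both lines. Atf3, a stress-induced factor that represses as a homodimer, was scarcely seen in Six2TGC, at 0.348 and 0.363, against 2.90 and 2.79 for Six2Cre. The lowest Six2Cre library was 7.68-fold above the highest Six2TGC library, the widest gap of any member, and it rests on low values. Batf3, a partner of JUN proteins known from dendritic cells, stood at 1.73 and 2.05 against 2.52 and 2.63, 1.36-fold. Atf3 and Batf3 are neighbours on chromosome 1, with 61353 bases between them. Fosl2, a late FOS protein, went the other way, at 2.93 and 2.63 for Six2TGC against 2.50 and 2.18 (means of 2.78 ± 0.210 and 2.34 ± 0.227). That is 1.19-fold higher in Six2TGC without overlap of the libraries, as for 29.5% of all genes tested. Fosl1, a late FOS protein that lacks the strong activation domain of FOS, stood at 0.0938 and 0 for Six2TGC against 0.371 and 0.0989, too low for a ratio.

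**Figure D1:**
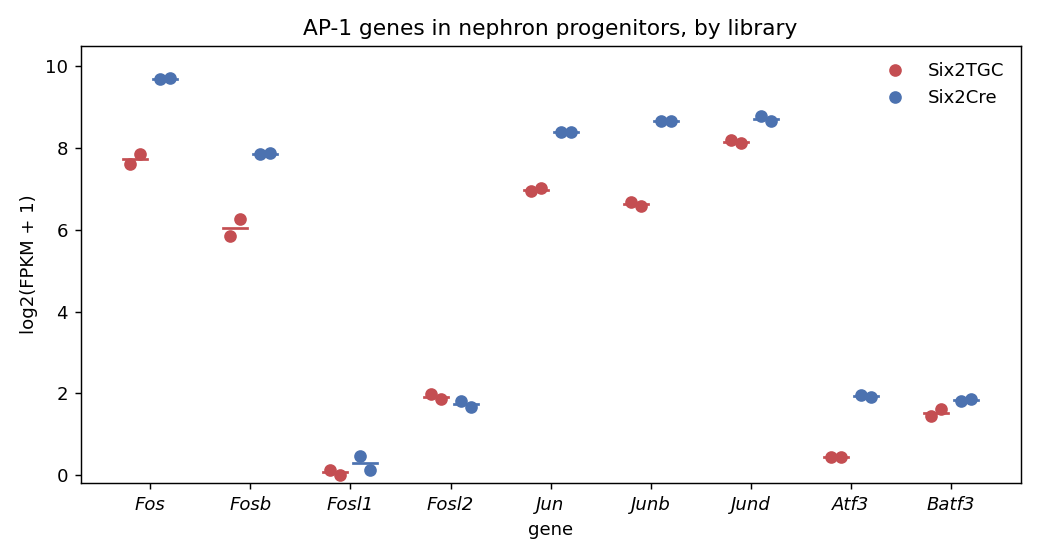
Level of each AP-1 gene in each library, as log2(FPKM + 1), with 1 point per library and a bar at the mean of a line. Fos, Fosb, Jun, Junb and Atf3 stand well apart between the lines, Jund less so, and Fosl1, Fosl2 and Batf3 lie low in both.

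Counted over the members, both Six2TGC libraries lay below both Six2Cre libraries for 8 genes and above them for 1, Fosl2. Of all 11917 genes tested, 36.4% lay below and 29.5% above. Fosl1, among the 8, is not among the genes tested, and its closest libraries stood at 0.0938 in Six2TGC and 0.0989 in Six2Cre. The means were at least 2-fold lower for 5 members (Fos, Fosb, Jun, Junb and Atf3), against 3.37% of all genes tested. The test across all genes, limma on log2(FPKM + 1) at a Benjamini-Hochberg adjusted p under 0.05, covered genes whose FPKM averaged 1 or more over the 4 libraries. It took in 8 members, Fosl1 being too low, and called 6 of them lower and 0 higher, without a call for Fosl2 and Batf3. Atf3, called lower, passed the filter only through its Six2Cre libraries, so its entry already depended on that difference. Of all genes tested, 13.5% were called lower and 10.8% higher, 24.3% in all. Since the members were chosen with this comparison known, nothing is read from these counts. The median log2 difference, Six2TGC minus Six2Cre, was -1.46 over the 8 tested members and -0.03 over all genes tested. It ran from -2.04 (Junb), -1.97 (Fos), -1.81 (Fosb), -1.50 (Atf3) and -1.42 (Jun) through -0.56 (Jund) and -0.31 (Batf3) to 0.18 (Fosl2). Below Junb stood 71 of the tested genes, below Fos 80 and below Jund 776. In sorted populations measured in bulk, fewer cells that express a gene and less RNA per cell cannot be told apart.

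**Figure D2:**
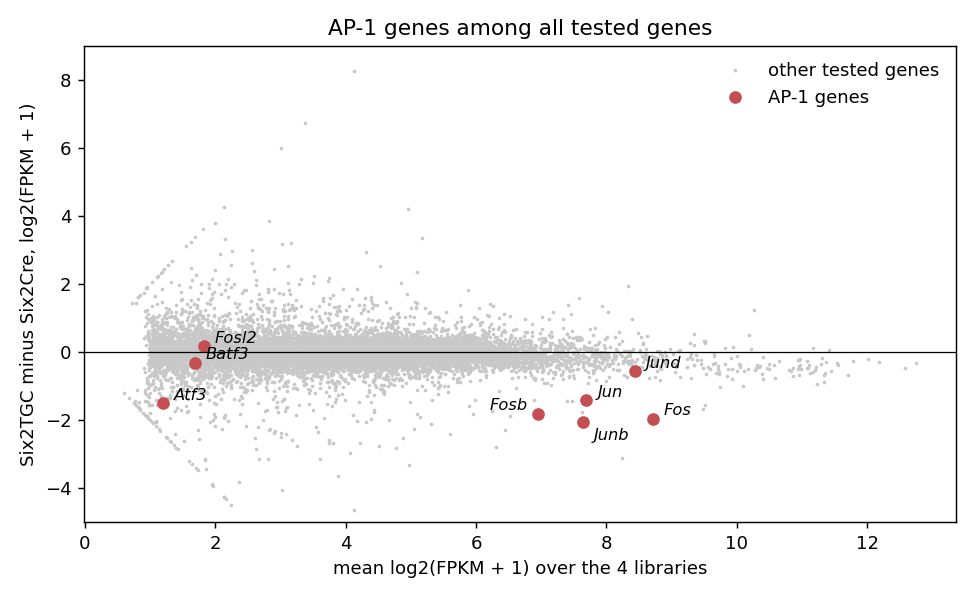
Difference between the lines, Six2TGC minus Six2Cre in log2(FPKM + 1), against mean level for every tested gene (grey) and the 8 tested AP-1 genes (red). Fos, Fosb, Jun and Junb lie between -2.04 and -1.42 among genes of high level, where most other genes stay near 0.

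The order of the members differed between the lines. In Six2TGC the order of the mean FPKM was Jund, Fos, Jun, Junb and Fosb, each pair of neighbours with libraries that did not overlap. In Six2Cre Fos came first, 1.98-fold above Jund, while Jund and Junb could not be ordered, since the libraries overlapped, and Jun and Fosb followed. After Fosb came a gap in both lines, of 23.8-fold to Fosl2 in Six2TGC and of 81.5-fold to Atf3 in Six2Cre. Among the 11917 tested genes, Fos ranked 296 in Six2TGC and 86 in Six2Cre, whereas Jund ranked 206 and 152. Junb moved from rank 758 to 158, Jun from 528 to 188 and Fosb from 1241 to 287. Atf3 moved from 11854 to 10301, still among the low genes. The place of Jund among the members rests on the length used for it. Its deposited position is longer than its GENCODE transcript.

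Summed over the 9 genes, FPKM was 770 and 813 for Six2TGC against 2248 and 2222, 2.82-fold apart. The FOS branch was 3.79-fold apart (282 ± 38.2 against 1066 ± 7.83) and the JUN branch 2.29-fold (508 ± 7.72 against 1163 ± 26.2). The ratio of FOS to JUN transcripts was 0.496 and 0.615 in Six2TGC libraries, below the 0.897 and 0.936 of Six2Cre. Jund made up 37.8% and 34.2% of the summed FPKM for Six2TGC, against 19.5% and 18.1%. Fos made up 25.3% and 28.3% against 36.8% and 37.6%. The mean share of Junb was 12.3% ± 1.08 in Six2TGC and 18.1% ± 0.144 in Six2Cre, whereas Jun kept nearly the same share, 15.9% ± 0.136 against 15.1% ± 0.129. Transcript shares do not give the share of each protein. The shares and the ratio of FOS to JUN also depend on the length used for Jund.

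**Figure D3:**
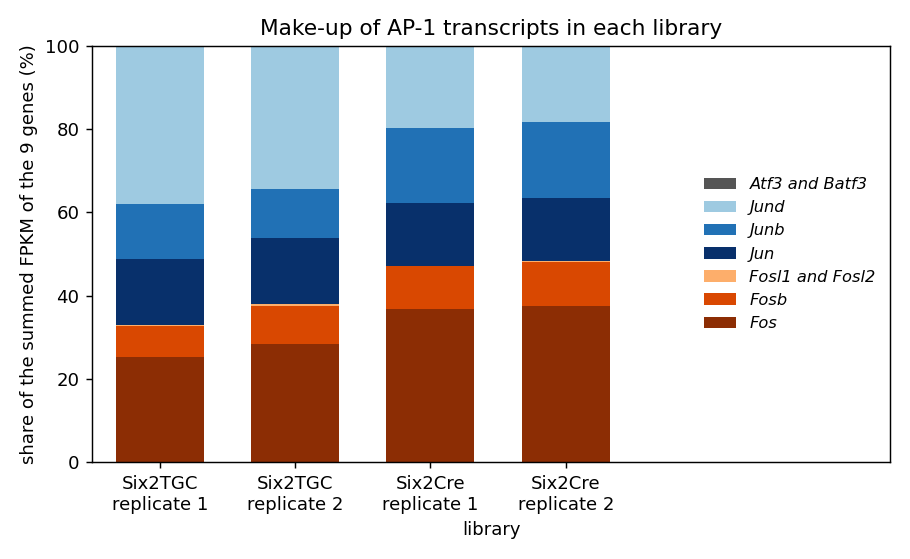
Share of each AP-1 gene in the summed FPKM of the 9 genes, in percent, with 1 bar per library. Jund holds 34.2% to 37.8% in the Six2TGC libraries and 18.1% to 19.5% in the Six2Cre libraries, and Fos 25.3% to 28.3% against 36.8% to 37.6%; Atf3 and Batf3 are too small to see.

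Differences between libraries of the same line, a measure the choice of genes did not use, were uneven. Fosb was higher in Six2TGC replicate 2 than in replicate 1 by 0.42 on the log2(FPKM + 1) scale, more than 92.8% of tested genes, and Fos by 0.24, more than 77.2%. Jun was higher by 0.10, near the median of all tested genes (0.12), while Junb and Jund were lower by 0.10 and 0.06, so the members did not share a direction within the line. In Six2Cre, Junb and Jun differed by less than 0.01 and Fos by 0.01, against a median of 0.10. Jund was lower in replicate 2 by 0.13, Fosl2 by 0.14 and Fosl1 by 0.32, the last more than 92.0% of tested genes. The Six2TGC libraries also differ in the Y-linked gene Ddx3y, at 12.7 and 0, and in Xist, transcribed from an inactivated X, at 0.0107 and 75.7, while both Six2Cre libraries had Ddx3y at 0 and Xist at 56.7 and 60.6. Whether sex bears on the Fos and Fosb values was not tested.

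In mm10 the deposited gene positions, counted from 1, put Fos at chr12:85473901-85477270, Fosb at chr7:19302696-19310045, Fosl1 at chr19:5447698-5457563 and Fosl2 at chr5:32136472-32157839. Jun lies at chr4:95049036-95052222, and Junb (chr8:84976909-84978748) and Jund (chr8:70697739-70700616) share chromosome 8. Atf3 lies at chr1:191170297-191183333 and Batf3 at chr1:191098414-191108943. Gene structure was not used in the choice. Jun, Junb and Jund each have a single exon in GENCODE M21, as do 2.42% of tested coding genes, and the other members have 3 or 4, against a median of 9. AUUUA, the core of the AU-rich element through which short-lived transcripts are marked for decay, was counted as ATTTA in the 3′ untranslated region. Fos holds 4 copies in 815 bases and Junb 2 in 485, or 4.91 and 4.12 per kilobase against a median of 1.20 over 10930 tested genes. Jun holds 4 in 1233 bases (3.24 per kilobase), Atf3 3 in 1186 (2.53) and Jund 1 in 533 (1.88). Fosl2 holds 8 in 4653 bases (1.72 per kilobase), Fosl1 1 in 638 (1.57), Fosb 1 in 2145 (0.466) and Batf3 none in 310. Fosb and Batf3 thus lie below the median of all genes and the other members above it.

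Genes with the profile most like Fos, Junb and Jund were sought by the Euclidean distance between mean-centred log2(FPKM + 1) values over the 4 libraries, among 11306 named genes. Nearest to Fos were Zfp36 (distance 0.0974), Tsga13, Padi4, Dnajb1 and H2-K1 (0.235), and among the members Fosb (0.204), followed by Junb. Nearest to Junb were Spp1 (0.0338), Fgf8, Padi4, Rasd1 and Nrp2 (0.187). Nearest to Jund were Dhx34 (0.0165), Tspan17, Siah2, Eif3e and E2f2 (0.0424). With 4 libraries the distance mostly measures the size of the difference between the lines. Tsga13, Padi4 and Spp1 passed the filter only through their Six2Cre libraries. In Six2TGC they stood at 0.126 and 0.396, at 0 and 0, and at 0.0990 and 0. The pseudocount of 1 understates the differences of such low genes. Tsga13 differed 14.7-fold in mean FPKM, against 3.91-fold for Fos, so nearness here is not a like ratio.

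Other bZIP genes, whose proteins pair with AP-1 or compete for its sites, moved in both directions. These and the lists that follow were written from textbook knowledge with earlier results known. Of 31 tested genes of 36 listed, 8 fell and 6 rose in Six2TGC and 17 had no call, with a median of -0.14. That is 25.8% lower and 19.4% higher, beside 13.5% and 10.8% of all genes tested. Cebpb, a factor of acute stress and differentiation, fell from 16.9 ± 0.205 in Six2Cre to 4.03 ± 1.21 in Six2TGC (log2 difference -1.85 ± 0.165 SE, limma adjusted p = 4.56e-04). The integrated stress response factors Ddit3 (-0.99, limma adjusted p = 2.08e-04) and Atf4 (-0.89, limma adjusted p = 1.80e-04) also fell, as did the small MAF gene Maff (-0.87, limma adjusted p = 3.18e-03). Jdp2, a repressor that pairs with JUN, fell by 0.90 (limma adjusted p = 0.0435), with libraries at 3.26 and 1.55 against 4.76 and 5.59. In the other direction, Batf, a close relative of Batf3 that pairs with JUN proteins, rose by 0.70 (limma adjusted p = 0.0412), with libraries at 4.27 and 2.75 against 1.98 and 1.52. Atf2 (-0.06), Creb1 (-0.04) and Crem (-0.45) had no call. The counts became 1 higher and 3 lower without Six2Cre replicate 1, and 2 and 4 without Six2Cre replicate 2. The Batf and Jdp2 calls were lost without either Six2Cre library, that of Batf also without Six2TGC replicate 1 or without a filter. That of Jdp2 was also lost without Six2TGC replicate 2, without a filter, with TMM scaling, with a pseudocount of 0.1 and with the replicate block, and the Maff call without Six2Cre replicate 1.

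Kinases upstream of immediate early genes were called in both directions. Of 30 tested MAP kinase cascade genes, 4 fell, 2 rose and 24 had no call, with a median of -0.04; 13.3% were lower and 6.67% higher, beside 13.5% and 10.8% of all genes tested. Mapk3 (71.6 ± 5.29 in Six2TGC against 64.3 ± 1.49) and Mapk8 (7.52 ± 0.653 against 7.42 ± 0.386), which encode ERK1 and the JUN kinase JNK1, had no call. All 4 genes that fell encode p38 kinases, namely Mapk13 (-1.93, limma adjusted p = 1.72e-03), Mapk11 (-1.07, limma adjusted p = 4.34e-03), Mapk12 (-0.73, limma adjusted p = 0.0126) and Mapk14 (-0.41, limma adjusted p = 8.46e-03). Map3k1, which acts upstream of JUN kinase, rose by 0.64 (limma adjusted p = 6.12e-03). The other gene that rose was Map2k1 (0.42, limma adjusted p = 0.0229), a call also lost without Six2TGC replicate 1 or without a filter. Without Six2Cre replicate 1 the counts were 0 higher and 2 lower, with the Mapk12, Mapk14, Map3k1 and Map2k1 calls lost. Without Six2Cre replicate 2 the counts were 1 and 2, with the Mapk12, Mapk14 and Map2k1 calls again lost. They were 1 and 4 without Six2TGC replicate 1, and 2 and 6 without Six2TGC replicate 2. Of 9 tested genes of serum response factor and its cofactors, 1 fell, Srf itself, from 72.6 ± 5.11 to 45.8 ± 3.98 (-0.65 ± 0.0915 SE, limma adjusted p = 2.66e-03). Elk1, a ternary complex partner of SRF at the Fos promoter, stood at 13.7 ± 0.820 against 13.5 ± 0.414 and had no call. Without Six2TGC replicate 2, 1 gene of this list was called higher.

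Genes of AP-1 turnover and feedback included a few with lower levels. Of 16 tested genes of turnover and feedback, 4 fell, 1 rose and 11 had no call, with a median of -0.12; 25.0% were lower and 6.25% higher, beside 13.5% and 10.8% of all genes tested. Zfp36, whose protein binds AU-rich elements and hastens the decay of such transcripts, fell from 176 ± 6.04 to 47.0 ± 6.89 (-1.89 ± 0.105 SE, limma adjusted p = 5.34e-05). The MAP kinase phosphatase genes Dusp5 (-1.47, limma adjusted p = 1.14e-04), Dusp2 (-1.11, limma adjusted p = 1.11e-03) and Dusp1 (-0.89, limma adjusted p = 1.46e-03) fell as well. Zfp36l2, a relative of Zfp36, rose by 0.58 (limma adjusted p = 2.99e-03), and Fbxw7, a ubiquitin ligase gene that acts on JUN, had no call at 5.96 ± 0.404 against 6.04 ± 0.230.

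Textbook AP-1 targets were called in both directions. Only 11 of the 25 listed passed the filter, of which 2 rose, 2 fell and 7 had no call, with a median of -0.06; 18.2% were called each way, beside 13.5% lower and 10.8% higher of all genes tested. Cd44, a cell surface receptor for hyaluronan, rose from 6.86 ± 0.942 to 22.6 ± 0.251 (1.59, limma adjusted p = 1.16e-04). Ccnd1, the cyclin D1 gene, which is also in the early nephron marker list, rose by 1.02 (limma adjusted p = 5.07e-04). Spp1, the osteopontin gene, fell by 2.04 (limma adjusted p = 2.46e-04), at 0.0990 and 0 against 3.28 and 3.36. Plau, the urokinase gene, fell by 1.40 (limma adjusted p = 1.53e-03), from 2.71 ± 0.152 to 0.413 ± 0.155. Plaur (-0.14), Timp1 (-0.06) and Hbegf (-0.30) had no call, and 7 of the listed genes, among them Mmp3, Mmp13 and Il6, were listed at 0 in all 4 libraries. Both falls are in genes of low level, and neither gene passed the stricter filter of a mean FPKM of 5. Both passed the filter of 1 only through their Six2Cre libraries, so their entry already depended on the fall.

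Among other immediate early genes and heat-shock genes, more were called lower than higher. Of 30 tested immediate early genes outside AP-1, 18 fell, 3 rose and 9 had no call, with a median of -0.55; 60.0% were lower, beside 13.5% of all genes tested. The 3 that rose were Sgk1, a kinase gene (0.98), Phlda1 (0.47) and Ier5 (0.43). Egr1, a zinc finger factor gene switched on with Fos, fell by 1.54 (limma adjusted p = 8.18e-05), and Egr4 (-4.05), Egr3 (-3.65), Nr4a1 (-3.33) and Egr2 (-2.82) had the largest changes. The count of falls became 11 without Six2Cre replicate 2, and that of rises 1 without Six2Cre replicate 1, where Phlda1 and Ier5 lost their calls. Egr3 lost its call when either Six2Cre library was left out. Heat-shock genes, which with immediate early genes are commonly read as a mark of handling during cell dissociation, gave 7 lower (58.3%), 0 higher and 5 without a call of 12 tested, with a median of -0.63. Their summed FPKM was 2781 to 2990 in Six2TGC and 4037 to 4113 in Six2Cre. Dnajb1, a co-chaperone gene, fell by 1.83 (limma adjusted p = 3.18e-05), while Hspa1b had no call at 2.54 and 2.86 against 14.8 and 37.9. Their part in the AP-1 difference was not tested, and the labels do not give the time from dissection to lysis.

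**Figure D4:**
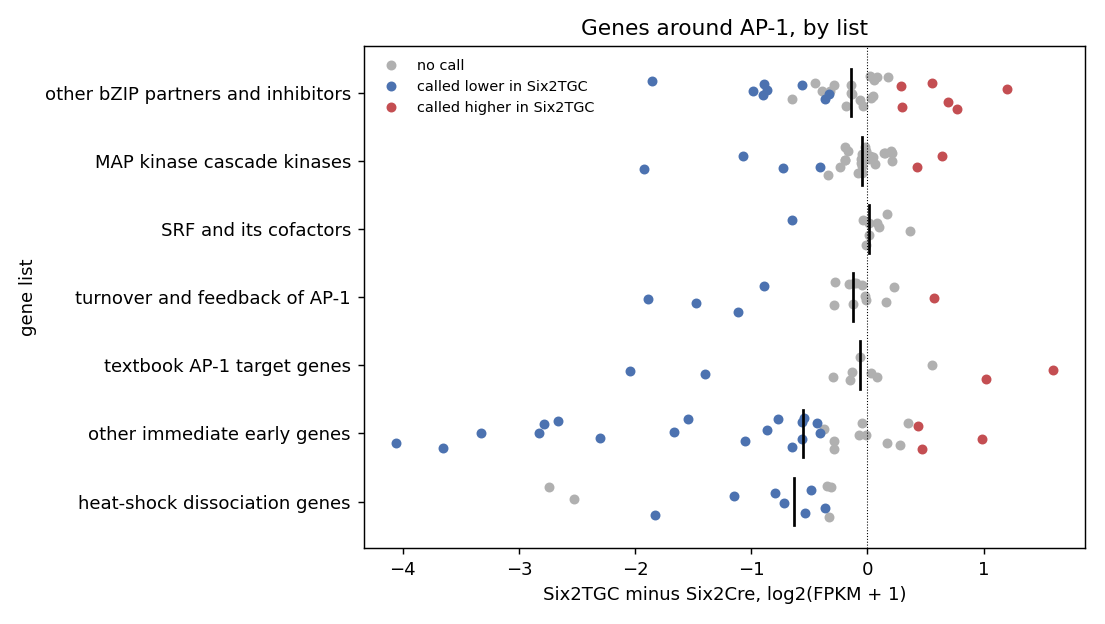
Difference between the lines, Six2TGC minus Six2Cre in log2(FPKM + 1), for each tested gene of 7 lists around AP-1, coloured by call, with a black bar at the list median (points are spread vertically to keep them apart). Immediate early and heat-shock genes lie mostly below 0, with medians of -0.55 and -0.63, while kinase, SRF and target lists have medians near 0.

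Markers of the labelled cell type were present in all libraries and did not move one way. The calls of the marker lists stand beside 13.5% lower and 10.8% higher of all genes tested. Of the 12 nephron progenitor markers, none at 0, 8 fell (66.7%) and 2 rose (16.7%). They summed to FPKM 1655 and 1780 for Six2TGC against 2466 and 2411. Cited1, a marker of uncommitted progenitors, differed most in FPKM, at 109 and 94.6 against 907 and 878. Without it the sums were 1546 and 1685 against 1559 and 1533. Those sums still hold Six2, an abundant marker that rose, beside markers that fell. Among the latter were Meox1 (17.4 ± 4.51 against 63.4 ± 1.30) and Itga8 (47.8 ± 1.57 against 72.3 ± 0.148). Six2, which drives the reporter used for sorting, rose from 539 ± 8.45 to 782 ± 47.7 (0.54, limma adjusted p = 1.57e-03). The constructs of both lines involve Six2, so its level is not read like that of the other markers. Their part in it was not tested. Early nephron markers summed to 305 to 307 in Six2TGC and 131 to 140.2 in Six2Cre, and 8 of 11 tested rose (72.7%) and 3 fell (27.3%). Summed stroma and mural markers (187 to 230.4 against 152 to 172) were apart between the lines but overlapped without Foxd1. Of 9 tested in that list, 4 rose (44.4%) and 1 fell (11.1%). Ureteric bud markers (27.4 to 33.6 against 51.8 to 54.4) were also apart, and of only 4 tested, 1 rose and 3 fell. The 10 endothelial markers (20.8 to 30.8 against 25.2 to 27.4) overlapped, but without Plvap they were apart, at 15.2 and 11.3 against 21.4 and 20.3. Plvap was the 1 endothelial marker called, higher at 15.6 and 9.52 against 5.97 and 4.88, a call lost without either Six2Cre library, while Pecam1 stood at 0.222 and 0.0463 against 0.644 and 0.965. The 12 immune and blood markers summed to 18.8 to 20.2 against 24.5 to 25.2, a gap carried by Cd68 (7.32 and 8.01 against 19.2 and 18.1), and without it to 10.8 to 12.9 against 5.99 to 6.32. C1qa of macrophages (1.61 and 2.38 against 0.293 and 0.217) and the globin gene Hbb-bt (2.20 ± 0.621 against 0.629 ± 0.101) were called higher. Both passed the filter only through their Six2TGC libraries. The C1qa call was lost without either Six2TGC library and that of Hbb-bt without either Six2Cre library, and Ptprc of leukocytes stood at 0 to 0.0495. The part of these markers in the AP-1 difference was not tested.

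Over all genes FPKM summed to between 481665 and 549971 per library. With Six2TGC replicate 1 set to 1, low values gave a depth of 0.958 for its partner and of 1.85 and 1.88 for Six2Cre, so Atf3, Batf3 and Fosl1 were measured with fewer fragments in Six2TGC. Libraries of a line carry neighbouring library names and no date is given, so a batch and the line cannot be told apart, and p-values measure the spread between these samples, which may be technical.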

How the data were processed

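RNA-seq of 4 libraries was used, 2 per line, with groups from the titles. The submitters' processing notes name HISAT2, Cuffdiff and the build mm10; for versions, annotation and strand use, the sources used here say nothing. The authors deposited FPKM per gene and library, with FPKM means per line. A score, the statistic of their own comparison, stands beside these, per the file headers. The same comparison has p-values and q-values, per the file headers. FPKM corrects for gene length and library size, so it depends on which fragments each gene was assigned. Without strand, reads of Jun and Junos, of Jund and Gm11175, and of Fosl1 and Ccdc85b, which overlap on opposite strands, cannot be told apart. No counts were given, so depth was estimated from the most frequent ratio between libraries over genes at FPKM up to 0.4 (252 to 334 of 1309 to 1511 genes lay in the peak).

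Genes averaging FPKM 1 or more were tested with limma 3.58.1 (R 4.3.3) on log2(FPKM + 1), with trend and robust empirical Bayes, two-sided, without covariates, at a Benjamini-Hochberg adjusted p under 0.05 over 11917 genes. Fold changes on this scale understate changes of low genes, and ratios in the text are of mean FPKM. The fit was tested on simulated data, in 10 runs with 200 changed genes each. It recovered 62.6% of changes of log2 1 and 90.2% of those of log2 2, with 2.23% false calls. A gene without a call may therefore still differ. The members and lists were chosen with earlier results of these data known. Named genes were the 9 members, 22 fixed genes and up to 4 called genes with the largest change per list. Also named were 5 profile neighbours each of Fos, Junb and Jund. Map2k1, Mapk14, Zfp36l2, Hspa1b, Mmp3, Mmp13, Il6, Sgk1, Phlda1, Ier5, Foxd1, Ptprc and Pecam1 were named after their values were seen. Some genes that the rule names are not reported here. Gene starts were converted to 1-based; promoter sequences are RefSeq's (GRCm38.p6). Date-like symbols (27 genes) were not named. Alternatives were the pseudocount, the filter, TMM (written out in R) and quantile scaling, leaving out each library, a replicate block and the authors' q-values; marker sums without the gene that differs most were added after seeing the data.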

Additional observations from a re-analysis of the deposited data

How the results depend on the processing

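The AP-1 genes kept the direction of their difference with TMM scaling, and with quantile normalization, which left out Fosl1. The other alternatives could not change a direction, since the libraries of the lines did not overlap for any member. They show only how far its size moved. At a mean FPKM of at least 5, 5 members were left, with both Six2TGC libraries lower in 5 and higher in 0. With 1 library left out, log2 differences ran from -2.09 to -1.85 for Fos, -2.02 to -1.60 for Fosb, -1.46 to -1.37 for Jun, -2.09 to -2.00 for Junb, -0.63 to -0.50 for Jund and 0.11 to 0.25 for Fosl2. Quantile normalization gave -1.75 for Fos, -1.27 for Jun, -1.92 for Junb, -0.41 for Jund and -1.39 for Atf3, with summed FPKM of 825 in Six2TGC and 2079 in Six2Cre; TMM gave 2211 in Six2Cre. A pseudocount of 0.1 gave -2.69 for Atf3, so its size depends on it.

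All-gene calls ran from 513 to 1235 higher and 497 to 1568 lower with 1 library left out, the lowest without Six2Cre replicate 1. The authors' q-values gave 844 and 793. With 1 library left out, other bZIP genes ran from 1 to 4 higher and 3 to 9 lower, kinases 0 to 2 and 2 to 6, SRF genes 0 to 1 higher, and immediate early genes 1 to 3 and 11 to 17. The authors' q-values gave bZIP genes 3 and 5, kinases 1 higher and targets 1 lower. Without a filter bZIP genes had 3 higher and kinases 1, and with the filter at 5 targets had 0 lower. The causes were not tested.

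The replicate numbers are not said to pair libraries, and the replicate 1 minus replicate 2 differences of the lines correlated across genes at r = -0.0399. With a replicate block, 1179 genes were higher and 1534 lower, and no count of the 7 lists moved by over 1.5 times; the Jdp2 call was lost. Depth limits Fosl1, Atf3 and Batf3, and a listed 0 does not show absence.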
